A study of Mus musculus with 6 samples.

Results

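The 10 genes described here encode the B-type cyclins (Ccnb1, Ccnb2, Ccnb3), their kinase partner Cdk1, the CDC25 phosphatases (Cdc25a, Cdc25b, Cdc25c) and the kinases that inhibit CDK1 (Wee1, Wee2, Pkmyt1). They were chosen by gene name from a table of 22416 genes, with no measured value in the rule. Earlier results of these data were known when the genes were chosen. Ribo-lite, a low-input form of ribosome profiling, was used to read the mRNA fragments covered by ribosomes in mouse oocytes. All 6 libraries came from wild-type oocytes, 500 per library, of 4-week-old C57BL/6 females given 5 IU of PMSG and killed 44 h later. WT_FGO held fully grown oocytes, which are arrested in meiotic prophase with an intact germinal vesicle. WT_MII held control oocytes at metaphase II, the arrest at which the egg waits for fertilization, and Treat_MII held treated oocytes labelled as the same stage. The labels say only that these oocytes were treated. In the study's methods the agent was BYBX, a ligand of RNA G-quadruplexes, which are folds of guanine-rich RNA, and controls received its solvent DMSO. By those methods oocytes were collected at the germinal vesicle stage and cultured with the agent or DMSO in the medium. The study reports that a small share of treated oocytes reached metaphase II, and that these had abnormal spindles. There were 2 libraries per group, oocytes were pooled within each, and nothing says whether the pools came from separate animals, so p-values measure only the spread between these libraries.

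Values are FPKM, fragments per unit of gene length, scaled to the mapped total. They are relative to the total of a library, and a level cannot tell more transcripts from more ribosomes per transcript. Nor can fewer oocytes and less RNA per oocyte be told apart in pooled cells. The whole reads behind an FPKM value were recovered from the coding lengths for 96.3% of the genes. A single read on a gene of 1 kb was worth 10.6 and 9.32 FPKM in the WT_FGO libraries, 6.06 and 4.33 in WT_MII, and 3.02 and 3.63 in Treat_MII, so low values were least certain in WT_FGO. Between 48.2% and 57.2% of genes were listed at 0 in a library. All 12 oocyte marker genes were detected. They summed to 61120 and 41580 FPKM in WT_FGO, 21260 and 25520 in WT_MII, and 31750 and 32680 in Treat_MII. Summed markers of granulosa and cumulus cells were 872 and 1845 FPKM in WT_FGO, 2263 and 431 in WT_MII, and 334 and 354 in Treat_MII. In WT_MII_1 Hsd17b1 alone gave 1956 of that sum. Of the 14 genes on that list 13 were above 0 in at least 1 library, Tnfaip6 was at 0 in all 6, and Fshr was at 0 except in WT_FGO_2. Theca or stroma markers summed to 44.6 and 39.3 FPKM in WT_FGO, and to between 7.62 and 12.6 in the metaphase II libraries. Blood markers summed to 24.9 and 43.8 FPKM in WT_FGO and to 0 in the metaphase II libraries. The part of all these markers in the results was not tested.

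Cyclin B and CDK1 together form maturation-promoting factor, the kinase that drives entry into M phase. CDK1 is held inactive by phosphorylation, placed by WEE1, its oocyte-specific relative WEE2 and the membrane-bound kinase MYT1 (encoded by Pkmyt1), and removed by the CDC25 phosphatases. In mouse oocytes this balance keeps the prophase arrest, its reversal starts maturation, and high activity of the complex maintains metaphase II. Fully grown oocytes do not transcribe, so during maturation protein synthesis draws on stored mRNAs, some of which are activated by cytoplasmic polyadenylation.

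The Ccnb1 row needs a caution about its sequence. Ccnb1 lies at chr13:100778650-100786570 on the minus strand (GRCm38, 1290 coding bases). Of the 1266 coding stretches of 28 bases, about the length of a footprint, 92.4% occurred elsewhere in the genome and 7.58% occurred in Ccnb1 alone. The transcripts that shared most were Ccnb1-ps (1016 stretches), Gm12856 (812), Gm8416 (753), Gm4870 (453) and Gm7483 (187), none of which had a row in the table. The 2 stretches below show the extremes. The first, chr13:100781686-100781713, has 6 copies elsewhere, and the second, chr13:100783513-100783540, has none. Both are on the minus strand, read 5′ to 3′.
Ccnb1, shared stretch: ttgactggctaatacaggttcagatgaa
Ccnb1, unique stretch: cgcagatgatggggctgacccaaacctc
For the other 9 genes the share found elsewhere was at most 3.25%, the highest being that of Ccnb2. How reads with several equal matches were assigned is not given in the sources used here, so the Ccnb1 level is uncertain, whereas that of Ccnb2 is little exposed to this problem.

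Because stored cyclin mRNAs are known to be regulated through their 3′ ends, the 3′ UTRs were searched on the sense strand for TTTTAT and TTTTAAT, the letters of the cytoplasmic polyadenylation element in DNA form. A match is a description of the letters and not a site shown to act. In the last 200 bases of the transcript Ccnb1, Ccnb2 and Ccnb3 each had 1 match and Wee2 had 2, whereas the other members had none. Of 16807 genes with such a window 28.2% had a match. The 3′ UTR of Pkmyt1 has only 124 bases and so lacks a full window. Over the whole 3′ UTR there were 6 matches in Cdc25a, 4 in Ccnb1, 2 each in Cdk1 and Wee2, and 1 each in Ccnb2 and Ccnb3. The other members had none. For whole 3′ UTRs, which differ in length, no share over all genes was computed. The match nearest the 3′ end is shown in capitals, from GENCODE M21 transcripts placed on GRCm38. It is given for the 3 genes with a match in the last 200 bases and more than 1 read. The stretches lie at chr13:100778775-100778804 (minus), chr9:70407860-70407889 (minus) and chr6:40466784-40466813 (plus), in that order.
Ccnb1: ctcatttgctgTTTTAATttatacatctga
Ccnb2: atcctgtatgtaTTTTATtctagtttacat
Wee2: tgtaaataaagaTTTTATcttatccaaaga
These matches began 144 bases before the 3′ end in Ccnb1, 186 in Ccnb2 and 18 in Wee2.

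Since the ligand binds G-quadruplexes, the sense strand of each transcript was also searched for 4 runs of at least 3 G separated by loops of 1 to 7 bases. A match was found in 3 members, in the 3′ UTR of Cdk1 at chr10:69336256-69336274 (minus), in the 3′ UTR of Cdc25a at chr9:109893231-109893259 (plus) and in the 5′ UTR of Pkmyt1 at chr17:23726387-23726413 (plus). The G runs are in capitals.
Cdk1: GGGtGGGGtGGGGtGGGGG
Cdc25a: GGGtGGGcacccaaGGGtgagcaGGGGGG
Pkmyt1: GGGGGcGGGaccacGGGcgagcctGGG
Among genes with a region of like length, 19.4% had such a match for Cdk1, 13.5% for Cdc25a and 11.9% for Pkmyt1. Over all genes the share was 5.63% for 5′ UTRs and 8.95% for 3′ UTRs. No match in the other members says only that these letters are not there. For Ccnb1 the study reports a higher G-quadruplex signal in the 3′ UTR after BYBX, measured with an antibody. It also reports less Cyclin B1 protein and a repressed reporter with that 3′ UTR. Neither protein nor reporters were measured in the libraries described here.

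The first comparison, WT_MII with WT_FGO, asks which of these mRNAs changed in ribosome occupancy over meiotic maturation. Of the 10 genes 9 reached a mean of 1 FPKM and were tested, and Ccnb3 was not. With limma on log2(FPKM + 1) and Benjamini-Hochberg adjustment over 15127 genes, 3 members rose (Ccnb1, Cdc25a and Wee2) and 1 fell (Cdk1). Over all tested genes 3.67% rose and 3.09% fell, 6.76% in all. An unadjusted p under 0.05 was given by 5 of the 9 members and 22.8% of all genes, and the fifth was Cdc25b. The median change of the 9 tested members was -0.55 on the log2 scale, against -0.44 over all tested genes.

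Ccnb1, the principal mitotic and meiotic cyclin, was listed at 0 FPKM in both WT_FGO libraries, at 235 and 322 in WT_MII, and at 281 and 371 in Treat_MII. The recovered reads were 0 and 0, 50 and 96, and 120 and 132. Thus all 4 metaphase II libraries had footprints counted on the gene and neither WT_FGO library had any counted. The mean WT_MII level was 12.02-fold the floor of 3 reads averaged over the WT_FGO libraries, where that floor was 24.7 and 21.7 FPKM. The log2 change was 8.11 ± 0.47 (SE; limma adjusted p = 0.00117), a fitted value that depends on the pseudocount. All counts above 0 of Ccnb1 and Ccnb2 were even, whereas each other member had odd counts. Of those others, Ccnb3 and Cdc25c had only 1 read each in the series. The share of all genes with only even counts was not computed, and the cause was not tested. If reads of Ccnb1 and Ccnb2 were counted more than once, intervals from their counts are too narrow and their floors too low.

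Ccnb2, whose product also activates CDK1, had footprints in every library. Its levels were 142 and 141 FPKM in WT_FGO, 50.8 and 181 in WT_MII, and 121 and 109 in Treat_MII. The WT_MII libraries stood on either side of the WT_FGO ones, and the groups overlapped. The log2 change was -0.55 (95% interval -2.06 to 0.96; limma adjusted p = 0.612), and it was 0.36 without WT_MII_1, which held 10 reads of the gene. Ccnb3, a cyclin of meiotic cells, had 1 read in all, in Treat_MII_2.

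Cdk1 moved opposite to Ccnb1. It stood at 452 and 471 FPKM in WT_FGO, 47.6 and 38.9 in WT_MII, and 61.0 and 61.1 in Treat_MII. Both metaphase II groups lay far below WT_FGO, although they had the deeper libraries. The log2 change in WT_MII was -3.39 ± 0.35 (SE; limma adjusted p = 0.00584). In pooled reads the WT_MII level was 0.0920 of the WT_FGO level (exact 95% interval 0.0493 to 0.161, which covers counting error only). PCR copies are not independent molecules, and whether they were removed is not given in the sources used here. If they were counted, such intervals are too narrow.

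The CDC25 phosphatases exchanged places. Cdc25a was at 0 FPKM in both WT_FGO libraries, at 39.0 and 66.9 in WT_MII, and at 83.5 and 84.1 in Treat_MII. Its reads were 0 and 0, 10 and 24, and 43 and 36. The WT_MII level was at least 2.75-fold above the floor of 3 reads in each WT_FGO library, and the log2 change was 5.70 ± 0.64 (SE; limma adjusted p = 0.00733). Cdc25b, the family member that mouse oocytes need to resume meiosis, stood at 47.8 and 52.6 FPKM in WT_FGO, 0 and 12.2 in WT_MII, and 20.4 and 8.19 in Treat_MII. Both WT_MII values lay below both WT_FGO values, as for 25.8% of all tested genes. The log2 change of -3.82 missed the threshold (95% interval -6.96 to -0.67; limma adjusted p = 0.147), and it was -1.95 without WT_MII_1. A single exon of Spef1 on the opposite strand overlaps up to 92 coding bases of Cdc25b. Whether strand was used in counting is not given in the sources used here. Cdc25c had 1 read in the series, in WT_FGO_2.

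Among the inhibitory kinases Wee2 carried most of the footprints. Its levels were 19.1 and 61.6 FPKM in WT_FGO, 262 and 505 in WT_MII, and 560 and 527 in Treat_MII. Every metaphase II library was above every WT_FGO library. The log2 change in WT_MII was 3.36 ± 0.62 (SE; limma adjusted p = 0.0331), and pooled reads gave a ratio of 9.67 (exact 95% interval 5.67 to 17.9, counting error only). Wee1, the widely expressed member, was at 0 and 14.4 FPKM in WT_FGO, 0 in both WT_MII libraries, and 9.34 and 5.62 in Treat_MII, from at most 6 reads in a library. Pkmyt1 was at 7.21 and 6.34 FPKM in WT_FGO, 20.6 and 2.95 in WT_MII, and 22.6 and 42.0 in Treat_MII. The WT_FGO values of Pkmyt1 each came from 1 read, and the WT_MII libraries fell on either side of them (log2 change 0.25, 95% interval -2.15 to 2.65; limma adjusted p = 0.934). A single exon of Paqr4 on the opposite strand overlaps up to 187 coding bases of Pkmyt1.

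The calls of this comparison leaned on the spread estimated from all 3 groups. Without either Treat_MII library no gene of the whole table passed, so none of the 4 members did, and the same held when only WT_FGO and WT_MII were fitted. The call of Wee2 was the weakest. It was also lost without WT_FGO_1 and without either WT_MII library, with changes from 2.54 to 4.18 over all libraries left out in turn.

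**Figure D1:**
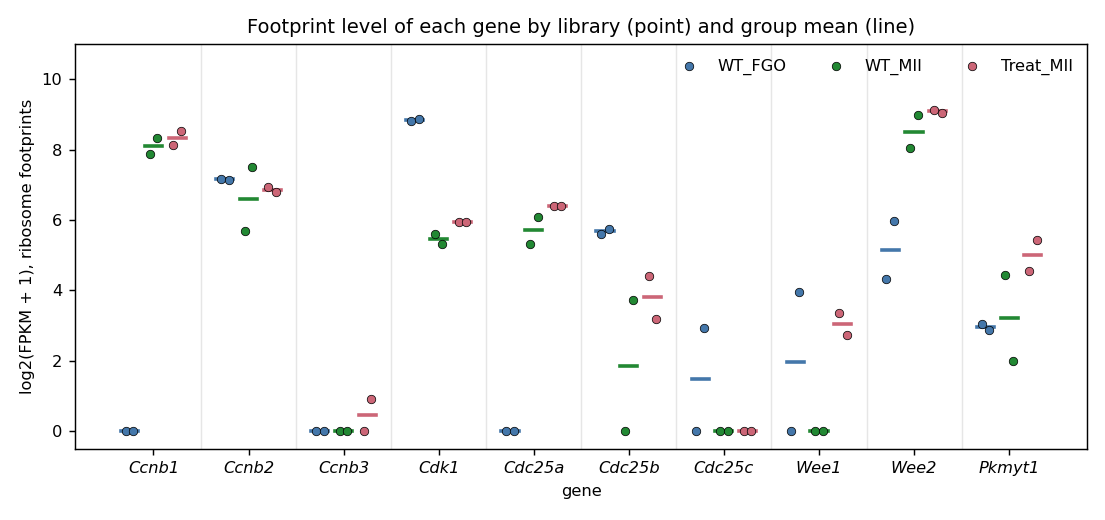
Footprint level of the 10 genes as log2(FPKM + 1) on the vertical axis, with 1 point per library (2 per group) and a line at the mean of the log2 values. Ccnb1 and Cdc25a sit at 0 in both WT_FGO libraries and above 5 in every metaphase II library, whereas Cdk1 is highest in WT_FGO.

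Within families the composition differed between the stages. Ccnb1 gave 0 of 16 and 0 of 18 cyclin B reads in WT_FGO, counts that allow shares of up to 18.8% and 16.7% at 3 reads, or 20.6% and 18.5% by the exact Clopper-Pearson bound. It gave 83.3% (exact Clopper-Pearson 95% interval 71.5 to 91.7) and 65.8% (57.4 to 73.4) in WT_MII, and 71.4% (64.0 to 78.1) and 78.1% (71.1 to 84.1) in Treat_MII. Counted cyclin B reads in WT_FGO were therefore all from Ccnb2, and in every metaphase II library mostly from Ccnb1. The handling of reads shared with other loci is not given, and 92.4% of Ccnb1 coding stretches occur elsewhere. The true Ccnb1 share may therefore lie outside these bounds. All counts of Ccnb1 and Ccnb2 above 0 were even, so these intervals may also be too narrow.

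Cdc25b gave 8 of 8 and 10 of 11 Cdc25 reads in WT_FGO. Cdc25a gave 10 of 10 and 24 of 29 in WT_MII, and 43 of 55 and 36 of 40 in Treat_MII. The leading phosphatase gene thus differed between the stages in every library. Wee2 gave 3 of 4 and 11 of 15 kinase reads in WT_FGO (exact 95% intervals 19.4% to 99.4% and 44.9% to 92.2%). It gave between 92.4% and 99.5% in the metaphase II libraries, so it led the kinases there. The WT_FGO counts are too few to settle which kinase led. Shares of reads favour longer genes and are not shares of transcripts.

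**Figure D2:**
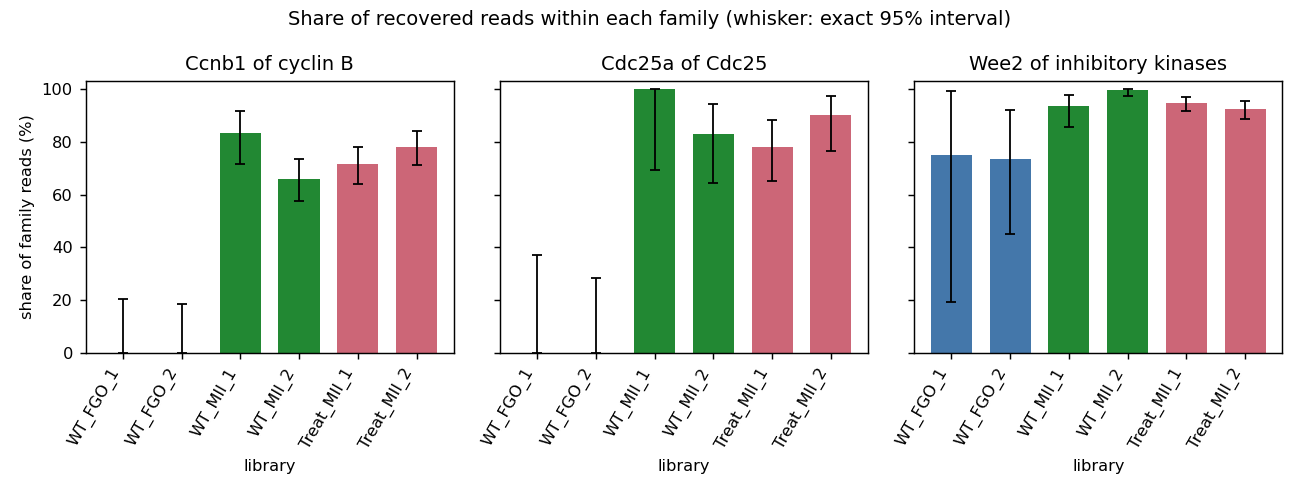
Share of recovered reads, in percent, given by Ccnb1 among the B-type cyclins, Cdc25a among the Cdc25 genes and Wee2 among the inhibitory kinases in each of the 6 libraries, with whiskers for exact 95% intervals of counting error. The first and second shares are 0 in both WT_FGO libraries and above 60 in each metaphase II library. The first rests on the uncertain Ccnb1 level.

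Summed per length, the cyclin B genes came to 142 and 141 FPKM in WT_FGO, 286 and 504 in WT_MII, and 402 and 482 in Treat_MII. Divided by the Cdk1 level, these sums were 0.314 and 0.299 in WT_FGO, 6 and 12.9 in WT_MII, and 6.59 and 7.88 in Treat_MII. Cdk1 footprints thus exceeded cyclin B footprints in WT_FGO, and the reverse held at metaphase II in both groups. The cyclin sum includes the uncertain Ccnb1 level. The inhibitory kinases summed to 0.550 and 1.39 times the Cdc25 genes in WT_FGO, to 7.25 and 6.42 times in WT_MII, and to 5.70 and 6.23 times in Treat_MII. In WT_FGO these ratios rested on only 4 and 15 kinase reads and 8 and 11 Cdc25 reads, so they are uncertain. With 2 libraries against 2, an exact permutation test of any such value cannot give a two-sided p below 0.333.

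In order of mean level, WT_FGO ran from Cdk1 (462 ± 13.2 FPKM; SD, n = 2) through Ccnb2 (141 ± 1.08), Cdc25b (50.2 ± 3.35) and Wee2 (40.4 ± 30.05) to Wee1, Pkmyt1 and Cdc25c below 10 FPKM. Cdc25b and Wee2 overlapped in that order. WT_MII ran from Wee2 (383 ± 171) through Ccnb1 (279 ± 61.8), Ccnb2 (116 ± 92.3), Cdc25a (52.9 ± 19.7), Cdk1 (43.3 ± 6.18) and Pkmyt1 (11.8 ± 12.5) to Cdc25b (6.11 ± 8.64). Libraries of neighbouring genes overlapped for Wee2 and Ccnb1, for Ccnb2 and Cdc25a, for Cdc25a and Cdk1, and for Pkmyt1 and Cdc25b. Treat_MII had these 7 genes in the same order. There neighbours did not overlap, and Wee1 followed Cdc25b with overlapping values.

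The second comparison, Treat_MII with WT_MII, asks what the treatment changed at metaphase II. No member passed the threshold in limma (smallest adjusted p = 0.931) and none had an unadjusted p under 0.05. Among all 15127 genes 0 passed (0% in each direction), although 882, or 5.83%, had an unadjusted p under 0.05. With precision weights 1.13% of genes passed, and between 2.40% and 2.76% did when any 1 of the 4 metaphase II libraries was left out, but no member was among them. The point estimates of the members were above 0 for 8 of the 9 tested and 0 for Cdc25c, with a median of 0.58 on the log2 scale against 0 over all genes. Both Treat_MII libraries were above both WT_MII libraries for 5 members (Cdk1, Cdc25a, Wee1, Wee2 and Pkmyt1), an arrangement found for 16.2% of all tested genes. None of the 9 lay below in both, against 15.6% of all.

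The intervals show how much change the data could have held. For Ccnb1 the log2 difference was 0.23 (95% interval -0.92 to 1.38), for Ccnb2 it was 0.26 (-1.25 to 1.77), and for Cdk1 it was 0.49 (-0.36 to 1.35). The difference of Ccnb2 was -0.65 without WT_MII_1, and its mean FPKM was 115 in Treat_MII and 116 in WT_MII. For Cdc25a it was 0.70 (-0.85 to 2.25) and for Wee2 0.58 (-0.92 to 2.08). Wider intervals belonged to Pkmyt1 (1.79, -0.62 to 4.19), Cdc25b (1.95, -1.19 to 5.09) and Wee1 (3.05, -0.55 to 6.65), which had few reads. A missed threshold does not show that treated and control oocytes were alike.

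Several of these estimates depended on 1 control library. Left without WT_MII_1, which also had the high Hsd17b1 value, the Wee2 difference became 0.11 and that of Cdc25b 0.087, whereas that of Pkmyt1 became 3.01. Left without WT_MII_2, they became 1.05, 3.81 and 0.56. In pooled reads the ratio of treated to control was 1.13 for Ccnb1 (exact 95% interval 0.915 to 1.39), 0.913 for Ccnb2 (0.648 to 1.29), 1.52 for Cdc25a (1.002 to 2.34), 1.35 for Wee2 (1.17 to 1.57) and 3.04 for Pkmyt1 (1.24 to 8.99). These intervals leave out the spread between libraries, which for Wee2 in WT_MII alone ran from 262 to 505 FPKM. Those of Ccnb1 and Ccnb2 also rest on the even counts described above.

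**Figure D3:**
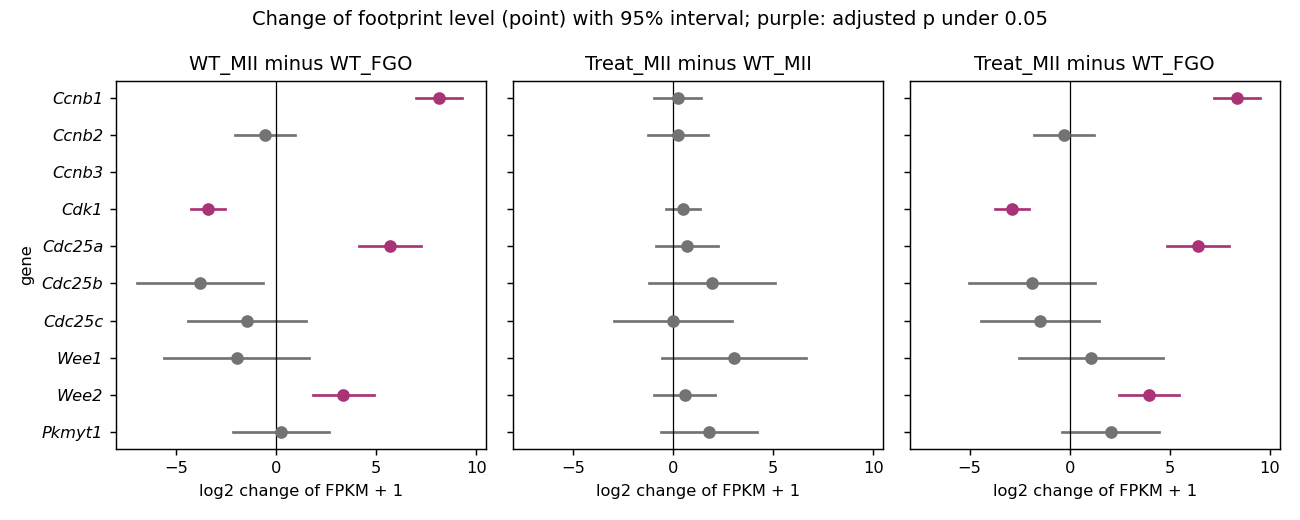
Change of each tested gene in log2(FPKM + 1) in the 3 comparisons, with points for the estimate and lines for the 95% interval (purple where the limma adjusted p was under 0.05, grey otherwise). Ccnb3 was not tested. Ccnb1, Cdc25a and Wee2 rose and Cdk1 fell in both comparisons with WT_FGO, and every interval of treated against control spans 0.

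Treated oocytes were also set against WT_FGO, which served as the reference of the first comparison too, so these results are not independent of each other. Again 3 members rose and 1 fell, where 2.86% of all genes rose and 1% fell, 3.87% in all. An unadjusted p under 0.05 was given by 4 of the 9 members and 19.9% of all genes. The log2 change of Ccnb1 was 8.34 in Treat_MII and 8.11 in WT_MII, that of Cdc25a 6.41 and 5.70, and that of Wee2 3.94 and 3.36. For Cdk1 it was -2.90 and -3.39. The limma adjusted p in Treat_MII was 0.00121 for Ccnb1, 0.00625 for Cdc25a, 0.0270 for Wee2 and 0.0119 for Cdk1. Pkmyt1 was above WT_FGO in both Treat_MII libraries, as were 16.6% of all genes, and its change of 2.04 did not pass (95% interval -0.37 to 4.44; limma adjusted p = 0.323). The calls of Cdc25a and Wee2 were lost without either Treat_MII library, and that of Wee2 also without WT_FGO_1 and without either WT_MII library. All 4 calls were lost when only these 2 groups were fitted, with limma adjusted p from 0.0506 for Ccnb1 to 0.118 for Wee2.

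Profiles were compared over the 6 libraries by the mean absolute difference of centred log2(FPKM + 1) values. Each member was set against 4092 genes that averaged 20 FPKM or more, with predicted and clone names left out. Nearest to Ccnb1 were Zfp616 (0.105) and Cks1b (0.205), and nearest to Wee2 were the spindle proteins Tpx2 (0.169) and Prc1 (0.186). The nearest to Cdk1 were Dnaja3 (0.124) and Hsp90b1 (0.166), both chaperones. For Cdc25a they were Sspn (0.127) and Cgas (0.153), for Ccnb2 Diablo (0.168) and Htr3b (0.175), and for Cdc25b Anapc7 (0.182) and Mrpl17 (0.259). Likeness here describes the shape over 6 libraries of 3 groups only.

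Around these genes stands a list of 33 others, covering further cyclins and CDK subunits, CDK inhibitors, checkpoint kinases and the phosphatases that oppose CDK1. Of these 31 were tested and Ppp1ca and Ppp1cc were listed at 0. From WT_FGO to WT_MII 3 rose and 1 fell, beside 3.67% and 3.09% of all tested genes (6.76% in all). Their median log2 change was -0.026, against -0.44 over all tested genes. Cks1b, a small CDK-binding protein, went from 0 in both WT_FGO libraries to 257 and 398 FPKM in WT_MII and 405 and 308 in Treat_MII (log2 change 8.33 ± 0.48, SE; limma adjusted p = 0.00117). Its mean WT_MII level was 3.10-fold the floor of 3 reads averaged over the WT_FGO libraries, where that floor was 112 and 98.8 FPKM. Of its coding stretches 38.5% occurred elsewhere in the genome, and its counts were all even, so its level is uncertain too.

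Mastl, the Greatwall kinase that restrains the PP2A phosphatase opposing CDK1, stood at 36.8 and 17.97 FPKM in WT_FGO, 194 and 215 in WT_MII, and 148 and 179 in Treat_MII. It rose by 2.94 ± 0.46 on the log2 scale (SE; limma adjusted p = 0.0213). Ppp2ca, a catalytic subunit of PP2A, fell from 68.6 and 101 FPKM to 6.54 and 9.34, with 26.0 and 15.7 in Treat_MII (log2 change -3.25 ± 0.60, SE; limma adjusted p = 0.0333). The WT_MII values of Ppp2ca rested on 1 and 2 reads, and its call was lost with the replicate number as a block. Chek1, a checkpoint kinase that acts on CDC25, went from 81.7 and 170 FPKM to 645 and 813, and to 845 and 910 in Treat_MII (log2 change 2.61 ± 0.39, SE; limma adjusted p = 0.0189). Without either WT_MII library only Cks1b of these 4 was called, and without either Treat_MII library none was. The call of Ppp2ca was also lost without either WT_FGO library.

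Between Treat_MII and WT_MII none of the 31 passed in limma (smallest adjusted p = 0.836; 2, Cks2 and Ppp2r2d, had an unadjusted p under 0.05, as had 5.83% of all genes). Ppp2r2d rested on 7 and 1 reads in Treat_MII against 0 elsewhere, and it alone was called without either Treat_MII library. Against WT_FGO, 3 of the 31 rose in Treat_MII and none fell, beside 2.86% and 1% of all tested genes.

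**Figure D4:**
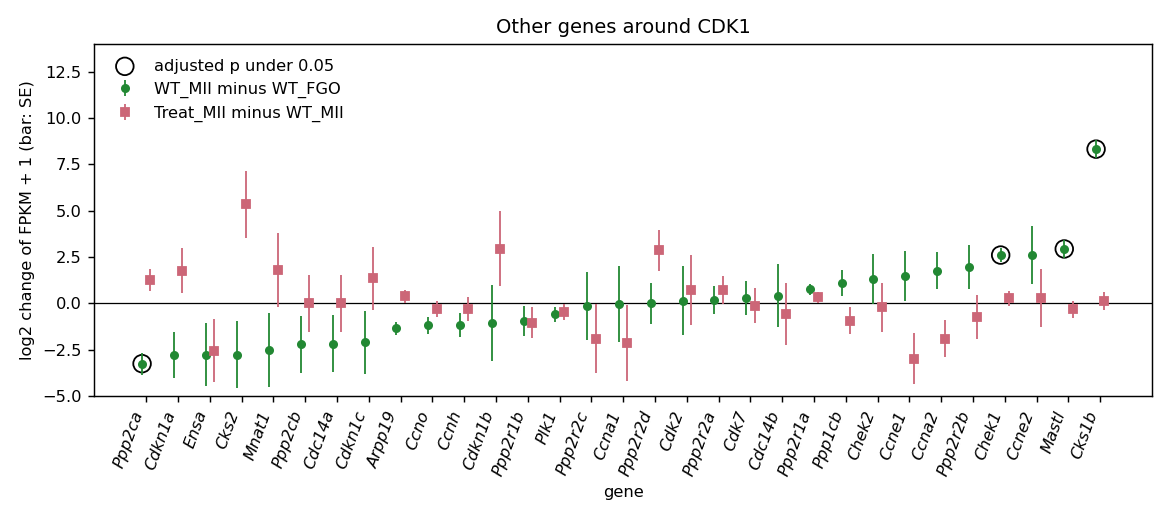
Log2 change in FPKM + 1 of the 31 tested genes around CDK1, ordered by the change from WT_FGO to WT_MII (green, circled where the limma adjusted p was under 0.05), with the change from WT_MII to Treat_MII in red and bars for the SE. Ppp2ca, at the left end, and Chek1, Mastl and Cks1b, toward the right, are circled.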

How the data were processed

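The authors deposited 1 table of FPKM per gene for the 6 Ribo-lite libraries. The submitters' processing notes name cutadapt 1.14, Bowtie2 2.2.2, STAR 2.5.3a and the build mm10. The counting program, its annotation and its handling of strand, of duplicate reads and of multiply mapped reads are not given in the sources used here. Of 22442 rows, 26 that repeated a gene name were left out. FPKM keeps no counts, but whole reads (tolerance 0.02) were recovered with GENCODE M21 coding lengths for 21593 genes and used for the shares and ratios of reads, their intervals and the floors of 3 reads per library.

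Genes averaging 1 FPKM or more were tested as log2(FPKM + 1) in R 4.3.3 with limma 3.58.1 (lmFit, eBayes with trend, all 3 groups in 1 fit) with Benjamini-Hochberg adjustment over all genes at 0.05. The fold change understates that of low genes. The script was tested on simulated data. Groups came from the sample titles. The text names all members, of the list around CDK1 at most 5 called genes per comparison and direction by adjusted p, and the 2 genes nearest in profile to each member with a mean of at least 20 FPKM. Cks2 and Ppp2r2d were named after their values were seen. The members and lists were chosen with earlier results of these data known. Alternatives were a pseudocount of 0.1, no filter or a mean of at least 5 FPKM, quantile normalization, centring, precision weights, only the compared groups, a replicate block, and each library left out. Deviations of same-numbered libraries correlated at 0.0342, 0.0189 and 0.0176 over 2706 genes. In libraries this shallow counting error can hide a pairing, so these values cannot decide whether replicate numbers paired the samples.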

Additional observations from a re-analysis of the deposited data

How the results depend on the processing

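When only the compared groups were fitted, 0 members and 0 genes of the list around CDK1 were called from WT_FGO to WT_MII, and 0 members in Treat_MII against WT_FGO. With each library left out in turn, the members called ranged from 0 to 4 in WT_MII against WT_FGO and from 2 to 4 in Treat_MII against WT_FGO, and stayed at 0 between Treat_MII and WT_MII. The genes around CDK1 ranged from 0 to 5 and, between Treat_MII and WT_MII, from 0 to 1. With the replicate block the calls were 4, 4 and 0 members, the same genes as without it, and 3 genes around CDK1 in WT_MII, where Ppp2ca was lost. Without WT_FGO_1, Cdc25c, with a single read in the series, was called in both comparisons with WT_FGO. The share of all tested genes called in WT_MII against WT_FGO, 6.76%, became 13.9% among genes averaging 5 FPKM or more, 16.4% with precision weights and 0% with only the compared groups. In Treat_MII against WT_FGO 3.87% became 8.21%, 19.5% and 0.212%. Precision weights called 5 members in WT_MII, adding Cdc25b (log2 change -3.42, limma adjusted p = 0.00812).

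Some changes that passed no test turned sign. Centring gave Ccnb2 in Treat_MII against WT_FGO a change of 0.056, and precision weights gave Pkmyt1 in WT_MII against WT_FGO -0.15. With libraries left out, Ccnb2 ranged from -1.46 to 0.36 in WT_MII against WT_FGO and from -0.65 to 1.17 in Treat_MII against WT_MII. Pkmyt1 in WT_MII against WT_FGO ranged from -0.98 to 1.48, and Wee1 in Treat_MII against WT_FGO from -0.90 to 3.05. The cause was not tested. No WT_FGO value of a member other than Cdk1 rested on more than 18 reads, so small differences from that group were not detectable at this depth.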
